A study of Homo sapiens with 6 samples.

Results

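The peaks described here lay between annotated genes. They are the peaks of 4 FLASH-seq lists on chromosomes 1 to 22 that overlapped no RefSeq gene of any biotype, leaving out chromosome 21 starts below 9000000, where ribosomal DNA is placed, and 1 place on chromosome 12 (chr12:66057596-66057679). There were 1014 such intergenic peaks among 6238 peaks on the same chromosomes outside these places and 9974 peaks in all. The other 5224 peaks of these chromosomes overlapped a gene and are called genic. The choice used positions only, not peak height or agreement between lists.

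HSP70 proteins are ATP-driven chaperones that bind short stretches of unfolded protein; HSPA1A is the form induced by heat and other stress, and HSPA8 is the form made at all times. FLASH-seq freezes contacts between RNA and a tagged protein with ultraviolet light, purifies the protein and reads the short RNA pieces that stay attached. RNA from between genes can come from transcripts that run past the end of a gene, from promoters read in reverse, from transcripts not yet annotated, from repeats, and from the spacers of tandem gene arrays. A read from a repeated sequence can also be placed at a copy that did not make it.

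The cells were of the human embryonic kidney line HEK293, in its Flp-In T-Rex form with a transgene that tetracycline turns on. Every group carried a 3xFLAG-HBH tagged bait, GFP, HSPA1A or HSPA8, induced at 1 µg/ml and crosslinked with UV-C light, so the chaperones were measured as tagged transgene products and not at their own promoters. The series has 6 samples, 2 biological replicates per bait. Lists of the HSPA1A and HSPA8 samples were used; GFP lists were not analysed here, so no value has a background from a control bait. The labels mark replicates by adapter tags that are read within a pulldown, and they do not say whether lists that share a replicate number share a day or run.

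The lists held between 2040 and 3131 peaks, of which between 751 and 2091 lay on chromosomes 1 to 22 outside the places left out. Read depth is unknown. Peaks on sequences other than chromosomes 1 to 22, X, Y and the mitochondrial genome numbered 0 in each HSPA1A list. The HSPA8 lists had 353 and 617 such peaks. This difference follows bait, and its part in the comparisons between baits was not tested. The authors gave every peak a score in whole numbers, and what it counts is not stated. Scores were used only within a list; where they are set side by side, a larger number in one list does not show more binding. A score percentile is the rank of a peak among all peaks of its own list, from 0 to 100. In the HSPA8 lists these ranks include the 353 and 617 peaks on other sequences.

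Sequence could be read for the few intergenic regions that reached into the RefSeq promoter table of GRCh38.p14, which covers 250 bases before to 50 bases after the start of a gene in 35116 windows. A region is the union of overlapping same-strand peaks of the 4 lists, and 8 regions reached a window. The 5 shown here are the 3 found in more than 1 list and 2 others with simple-sequence runs, chosen after their letters were seen. They are printed on the strand of the peak, 5′ to 3′; capitals are peak bases and lower-case letters are up to 30 bases of flank on each side inside the window.
PPP1R15B, chr1:204412053-204412082, minus strand: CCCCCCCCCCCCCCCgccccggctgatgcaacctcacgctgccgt
JRKL-AS1, chr11:96506996-96507024, plus strand: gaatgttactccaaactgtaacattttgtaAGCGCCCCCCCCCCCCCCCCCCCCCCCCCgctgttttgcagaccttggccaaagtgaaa
STX6, chr1:181023112-181023156, plus strand: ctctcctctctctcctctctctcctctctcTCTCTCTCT
SLC32A1, chr20:38724428-38724455, minus strand: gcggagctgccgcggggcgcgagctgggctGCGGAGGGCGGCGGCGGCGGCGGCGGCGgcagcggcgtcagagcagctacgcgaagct
MIR663AHG, chr20:26209349-26209398, minus strand: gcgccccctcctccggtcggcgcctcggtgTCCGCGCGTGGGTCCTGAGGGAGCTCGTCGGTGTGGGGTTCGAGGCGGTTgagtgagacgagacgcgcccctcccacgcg

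The region upstream of PPP1R15B, which encodes a subunit that directs protein phosphatase 1 to the translation factor eIF2α, was the only one of the 8 found in all 4 lists. Its scores were 61 and 31 in the HSPA1A lists, and the HSPA8 lists had 47 and 24. It lay 236 bp from the gene on the gene's strand, and the 15 of its 30 bases that the table covers were all C. That run of 15 C, searched on both strands, occurred in 35 windows, or 0.0997% of all. The region at JRKL-AS1 lay on the strand opposite to the gene, held a run of 25 C, and was found in HSPA1A replicate 1 alone with a score of 11.

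The region at STX6, a membrane-fusion syntaxin, had a score of 5 in both lists numbered 1, and the 9 bases in the table were a CT repeat that 524 windows also held (1.49%). The region at SLC32A1, the vesicular transporter of GABA, was 96.4% G and C and opposite to the gene; HSPA8 replicate 1 alone listed it, with a score of 6. The region at MIR663AHG, the host gene of miR-663a, was 70% G and C, against a median of 58.7% over all windows. It scored 14 in HSPA1A replicate 1 and 21 in HSPA8 replicate 1 and was in neither list numbered 2. A match of letters is a description and says nothing about which RNA was bound.

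The HSPA1A lists had more intergenic peaks than the HSPA8 lists. HSPA1A replicate 1 had 328 and replicate 2 had 287; HSPA8 replicate 1 had 279 and replicate 2 had 120. The lower HSPA8 mean rested mainly on its second list. The mean for HSPA1A was 308 ± 29.0 (SD, n = 2) and that for HSPA8 199.5 ± 112 (SD, n = 2), which gives 0.649 as the ratio of HSPA8 to HSPA1A (exact two-sided permutation test over 6 orders of the bait labels, p = 0.33). No p below 0.33 is possible with 2 lists per bait. The HSPA8 lists alone also had the 353 and 617 peaks on other sequences described above, which these counts leave out. The ratio was 0.907 without HSPA8 replicate 2 and 0.390 without HSPA8 replicate 1.

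As a share of each list's peaks on these chromosomes, intergenic peaks made up 16.0% (95% Wilson interval 14.5 to 17.7) and 21.3% (19.2 to 23.5) in the HSPA1A lists. They made up 13.3% (11.95 to 14.9) and 16.0% (13.5 to 18.8) in the HSPA8 lists. HSPA1A replicate 1 and HSPA8 replicate 2 thus had nearly the same share. The bait means were 18.6% ± 3.70 (SD, n = 2) and 14.7% ± 1.86 (SD, n = 2), a difference of 3.98 percentage points (exact two-sided permutation test, p = 0.33). The difference was 1.37 points without HSPA1A replicate 2. These intervals reflect only the number of peaks counted, and peaks that lie close together are not independent.

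Intergenic peaks mostly had low scores. Their median width was 45 and 44 bp in the HSPA1A lists, and the HSPA8 lists had 45 and 49 bp, and the range over the lists was 18 to 205 bp. Genic peaks had median widths of 41, 39, 48 and 40 bp in the same order of lists, so intergenic peaks were the wider ones in 3 of 4 lists. The median score was 6 and 8 for HSPA1A and 6 and 9 for HSPA8, where genic peaks had medians of 8, 10, 7 and 14. Scores of 10 or less were held by 69.8% and 59.9% of intergenic peaks in the HSPA1A lists and by 70.6% and 56.7% in the HSPA8 lists. Scores of at least 100 were held by 12, 5, 15 and 1 intergenic peaks, or 3.66%, 1.74%, 5.38% and 0.833%; the genic shares were 10.4%, 13.2%, 8.22% and 14.1%. The intergenic share was the lower of the 2 in each list.

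The median score percentile of intergenic peaks was 30.03 and 32.3 in the HSPA1A lists, and the HSPA8 lists had 29.8 and 24.0. Genic peaks had medians of 42.4, 41.9, 38.2 and 38.1, so intergenic peaks ranked lower in every list. Between baits the means were 31.2 ± 1.604 and 26.9 ± 4.09 (SD, n = 2), a difference of 4.23 points (exact two-sided permutation test, p = 0.33). Without the peaks in the U2 and 5S gene arrays described further on, that difference was 0.0338 points. For genic peaks the bait means were 42.2 for HSPA1A and 38.2 for HSPA8, a difference of 4.01 points in the same direction. The 4.23 points are thus not shown to be particular to intergenic peaks. Both strands were used: the plus and minus strands held 160 and 168 peaks in HSPA1A replicate 1, 154 and 133 in replicate 2, 116 and 163 in HSPA8 replicate 1 and 64 and 56 in replicate 2.

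The 1014 peaks formed 646 regions. A single list held 449 of them (69.5%), where the same held for 64.2% of the 3549 regions made in the same way from intergenic and genic peaks together. There were 97 regions of 2 lists (15.0%, against 14.2% of all), 46 of 3 lists (7.12%, against 9.16%) and 54 of all 4 lists (8.36%, against 12.4%). The share in 2 lists was thus near that of all regions, while the shares in 3 lists and in all 4 lists were smaller. Single-list regions numbered 157 for HSPA1A replicate 1 (24.3%), 145 for HSPA1A replicate 2 (22.4%), 146 for HSPA8 replicate 1 (22.6%) and 1 for HSPA8 replicate 2 (0.155%). Over all 3549 regions the shares were 23.4%, 10.7%, 29.1% and 1.01% in that order, so HSPA1A replicate 2 stood above its overall share. HSPA8 replicate 2 had few regions of its own in either set.

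**Figure D1:**
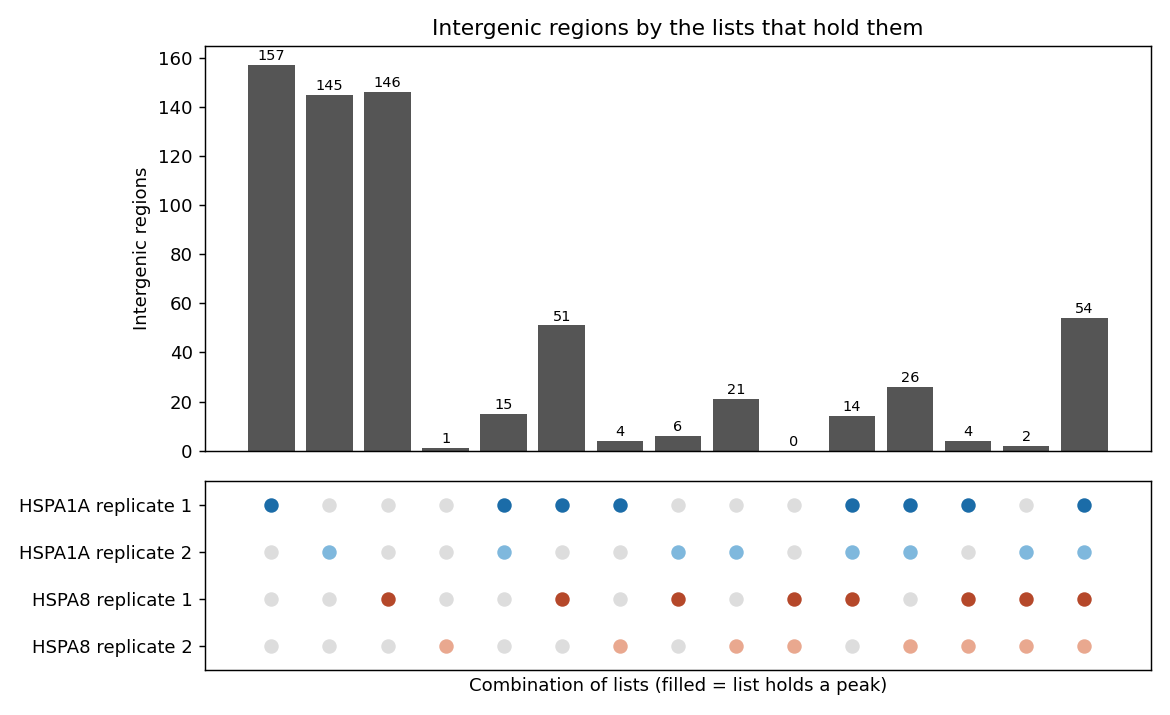
Number of intergenic regions (bar height) for each combination of the 4 lists, shown by the filled dots under the bar. The 3 tallest bars are single-list regions of HSPA1A replicate 1 (157), HSPA1A replicate 2 (145) and HSPA8 replicate 1 (146), and 54 regions hold a peak of every list.

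Of the 97 regions in 2 lists, 72 (74.2%) were in lists with the same replicate number, near the 69.5% (351 of 505) over all regions in 2 lists. The pair of lists numbered 1 alone shared 51 regions (7.89%, against 8.34% of all 3549 regions) and the pair numbered 2 alone shared 21 (3.25%, against 1.55% of all). Both HSPA1A replicates and no other list shared 15 (2.32%, against 2.65% of all). Both HSPA8 replicates and no other list shared 0, where 2 of all regions (0.0564%) had this pattern. The crossed pairs shared 4 (0.619%, against 0.676% of all) and 6 (0.929%, against 0.958% of all). Among regions of 3 lists, 26 lacked only HSPA8 replicate 1 (4.02%, against 2.48% of all) and 14 lacked only HSPA8 replicate 2 (2.17%, against 4.96% of all). A further 4 lacked only HSPA1A replicate 2 (0.619%, against 1.01% of all) and 2 lacked only HSPA1A replicate 1 (0.310%, against 0.704% of all).

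Both HSPA1A replicates held 109 regions in common (22.5% of all 3549 regions were in both), of which 54 (49.5%) were also in both HSPA8 lists; over all regions that share was 55.2% (441 of 799). Both HSPA8 replicates held 60 regions in common, where 14.2% of all 3549 regions were in both. Of these 60, 54 (90%) were in both HSPA1A lists, near the 87.5% (441 of 504) over all regions. The 6 remaining HSPA8 regions were each in 1 HSPA1A list, and the 55 remaining HSPA1A regions were in 1 HSPA8 list or none.

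Overlap between lists was measured as the percentage of the intergenic peaks in the list with fewer of them that had an intergenic peak of the other on their strand, sharing 1 bp or more. Beside it stands the same percentage over all peaks of that list on these chromosomes. For the replicates of HSPA1A it was 39.4% (113 of 287, Wilson interval 33.9 to 45.1), where all peaks gave 63.2%. For the replicates of HSPA8 it was 56.7% (68 of 120, 47.7 to 65.2), against 72.8%. The pair numbered 2 overlapped by 91.7% (110 of 120, 85.3 to 95.4), against 86.3%, and the pair numbered 1 by 44.8% (125 of 279), against 47.7%. HSPA1A replicate 1 and HSPA8 replicate 2 overlapped by 80.0% (96 of 120), against 84.3%, and HSPA1A replicate 2 and HSPA8 replicate 1 by 27.2% (76 of 279), against 33.5%. In 5 of 6 pairs the intergenic overlap was below that of all peaks, the exception being the pair numbered 2.

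Replicates of a bait did not overlap more than lists of different baits. The mean overlap was 48.0% within a bait and 60.9% between baits, a difference of -12.9 points (exact one-sided permutation test over the 3 ways to pair the 4 lists, p = 1). Pairing by replicate number gave the largest difference, 17.4 points, and the crossed pairing gave -4.51. Without HSPA8 replicate 2, the shortest list, the within-bait minus between-bait difference was 3.35 points. The lists numbered 1 were also the longer ones, so list length and replicate number cannot be told apart.

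Regions held by more lists ranked higher and were wider. The median of the mean score percentile was 13.1 for regions of 1 list, 35.3 for 2 lists, 45.9 for 3 lists and 58.2 for 4 lists, and median widths were 44, 45, 50.5 and 55 bp. Union over more lists can widen a region by construction. All 33 intergenic peaks with a score of at least 100 lay in the regions of all 4 lists. The matching share of genic peaks was not computed, so this is not shown to be particular to intergenic peaks. Those 54 regions held 56 and 57 peaks of the HSPA1A lists (17.1% and 19.9% of their intergenic peaks) and 55 and 62 of the HSPA8 lists (19.7% and 51.7%). The highest score among peaks of a single list was 16 and 23 in the HSPA1A lists, and the HSPA8 lists had 15 and 5.

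The single-list regions of the replicates also differed in width. A width of 36 to 60 bp was held by 80.7% of the 145 regions of HSPA1A replicate 2 alone, 42.7% of the 157 of HSPA1A replicate 1 alone and 47.9% of the 146 of HSPA8 replicate 1 alone. It was held by 84.6% of the 26 regions that lacked only HSPA8 replicate 1 and by 31.4% of the 51 regions of the lists numbered 1. This window of widths was chosen after the values were seen. The matching shares of genic or all regions were not computed, so the difference is not shown to be particular to intergenic regions. Median distance to a gene was 14097 bp for regions of HSPA1A replicate 2 alone, 4197 bp for HSPA1A replicate 1 alone and 2722 bp for HSPA8 replicate 1 alone. Regions of HSPA1A replicate 1 alone and of HSPA8 replicate 1 alone include the gene-array spacers described further on.

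The 12 regions of all 4 lists with the highest mean score percentile lay on 8 chromosomes. The first, chr8:92167467-92167541 on the minus strand, lay 23008 bp from RPS26P10, a pseudogene of a small-subunit ribosomal protein. It scored 304 and 147 in the HSPA1A lists, and the HSPA8 lists had 474 and 95, between percentiles 80.2 and 89.4 of each list. The second, chr5:71850936-71851050 on the plus strand, lay 30465 bp from the lncRNA LOC105379027 and scored 486, 58, 674 and 123, the last being the highest intergenic score of HSPA8 replicate 2. Both regions lay more than 20 kb from a gene, and both were at percentile 78.8 or above in every list.

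Of the 12 regions, 3 lay side by side on chromosome 2, on the minus strand, more than 10 kb from the lncRNA LOC100271832. The scores, in the order HSPA1A replicates 1 and 2, then HSPA8 replicates 1 and 2, were 874, 123, 886 and 54 at chr2:32916255-32916337. They were 881, 117, 645 and 46 at chr2:32916489-32916560. They were 458, 22, 343 and 25 at chr2:32916361-32916476. The highest intergenic scores of both lists numbered 1, 881 and 886, thus came from this place.

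The region chr9:76571749-76571806 on the plus strand, 6021 bp from the lncRNA LOC105376093, scored 173, 69, 174 and 57. The region chr1:228558285-228558365 on the minus strand, 2384 bp from RNA5SP19, a pseudogene of the 5S ribosomal RNA, scored 129, 97, 249 and 47. The region chr4:81594228-81594299 on the minus strand scored 77, 176, 40 and 71. Its nearest gene was the lncRNA LOC105377306 at 92791 bp, and 176 was the highest intergenic score of HSPA1A replicate 2. It stood at percentile 91.6 of that list and at 78.8, 70.2 and 75.4 of the others.

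In the remaining 4 of the 12, HSPA8 replicate 2 ranked the region at percentile 52.7 or lower. The region chr5:116818088-116818126, 3705 bp from the lncRNA LOC105379133, scored 104, 35, 231 and 26. The region chr13:109424135-109424341, which at 207 bp was the widest of the 54, scored 366, 29, 409 and 13. The region chr11:10509346-10509452, 170 bp from MTRNR2L8, a nuclear copy of the mitochondrial 16S ribosomal RNA gene, scored 152, 31, 157 and 17. The region chr1:200487873-200487904 scored 50, 50, 31 and 22 and lay 4367 bp upstream of the lncRNA LOC124900414 on its strand.

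**Figure D2:**
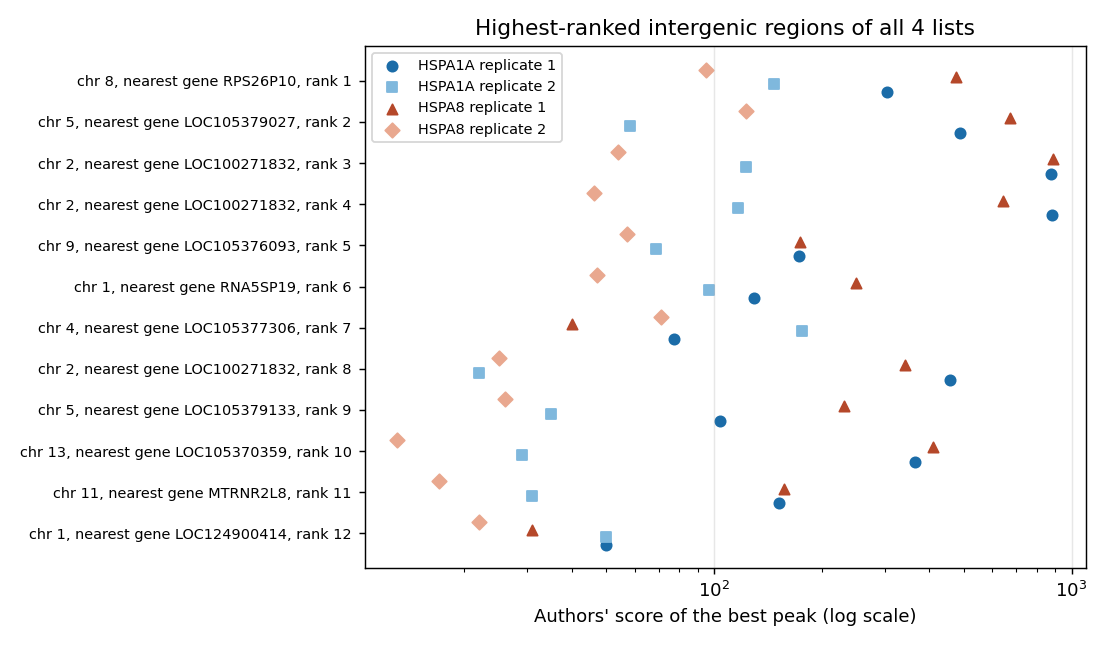
Authors' score (log scale) of the best peak of each list in the 12 regions of all 4 lists with the highest mean score percentile, 1 row per region, named by its nearest gene; colour and shape mark the list. Scores of different lists are not on a shared scale, and the region on chromosome 4 is the only row where the highest number belongs to HSPA1A replicate 2 alone.

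Across the 54 regions of all 4 lists, within-list ranks were alike for lists of the same replicate number. Spearman's rank correlation across regions was 0.95 between HSPA1A replicate 1 and HSPA8 replicate 1 and 0.72 between HSPA1A replicate 2 and HSPA8 replicate 2. It was 0.07 between the replicates of HSPA1A and 0.26 between the replicates of HSPA8. The crossed pairs gave 0.39 and -0.06. The 387 genic regions of all 4 lists gave 0.86, 0.89, 0.78 and 0.58 for the first 4 pairs and 0.79 and 0.53 for the crossed pairs. These are descriptions across regions, which are not replicates; neighbouring regions share a place, and the lists of a pair share whatever their labels do not record.

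**Figure D3:**
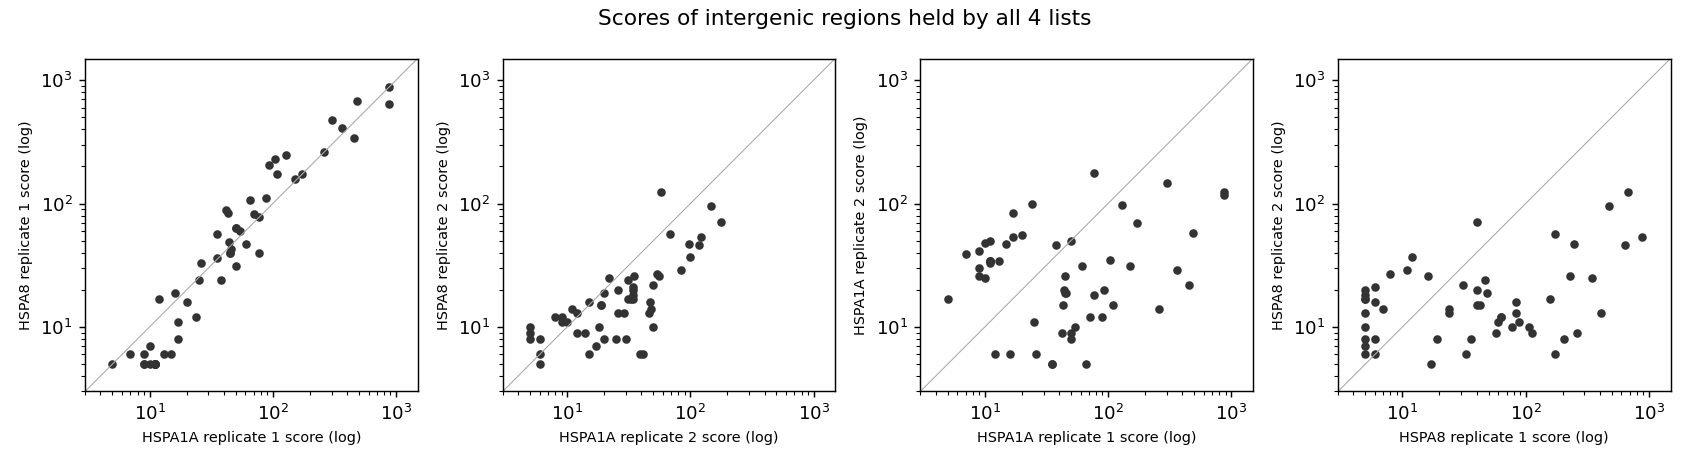
Authors' scores (both axes log) of the 54 intergenic regions held by all 4 lists, 1 point per region, for 4 pairs of lists; the grey line marks equal numbers. Points lie close to a line for the lists numbered 1 (rank correlation 0.95), less so for the lists numbered 2 (0.72), and are scattered for the replicates of HSPA1A (0.07) and of HSPA8 (0.26).

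Some distant regions carried nearly identical sets of scores. When regions were joined if all 4 scores and the width differed by 3 at most, 11 of the 54 regions fell into 4 sets. Joining was in chains, so scores within a set differed by up to 4. The same joining was not done on genic regions of all 4 lists. The count thus has no background share, and such sets are not shown to be particular to intergenic regions. The largest set held 5 regions on 5 chromosomes, 55 or 56 bp wide. The region chr1:23228616-23228670, 11114 bp from HTR1D, scored 11, 34, 5 and 17. The region chr12:130902983-130903037, 25305 bp from RAN, scored 11, 33, 5 and 17. The region chr7:89418151-89418205, 25725 bp from the lncRNA LOC105375387, scored 11, 34, 5 and 20.

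In that set chr2:186191481-186191535 scored 11, 34, 5 and 18, and chr4:47441237-47441292 scored 13, 34, 6 and 21. All 5 ranked at percentile 69.9 or 70.5 in HSPA1A replicate 2 and at 13.1 or 29.8 in HSPA8 replicate 1. A second set paired chr18:9296928-9296960 (50, 9, 63 and 12) with chr7:22090404-22090436 (50, 8, 63 and 12), both 33 bp wide. The sets were formed after the scores were seen. How reads that match several places were treated is not given in the sources used here, and its part in these sets was not tested.

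Regions of HSPA1A alone were weak. Of the 15 regions in both HSPA1A lists and no HSPA8 list, the 5 with the highest mean percentile scored between 5 and 17. They were chr7:22799287-22799343, 13631 bp from TOMM7, a subunit of the mitochondrial import channel (7 and 15), chr7:125702284-125702330 (9 and 11) and chr10:85361586-85361637 (6 and 17). The other two were chr6:102557010-102557061 (5 and 17) and chr9:30226368-30226417 (5 and 16). No region was found in both HSPA8 lists and neither HSPA1A list.

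Regions of the lists numbered 1 alone reached higher scores. The 5 with the highest mean percentile were chr7:45251998-45252073 with 45 in HSPA1A and 54 in HSPA8, chr11:10509486-10509561 near MTRNR2L8 with 49 and 36, and chr1:27916102-27916131 with 32 and 57. The last lay 1305 bp from RPA2, a subunit of the single-strand DNA binding protein RPA. The others were chr21:25855805-25855834 with 21 and 85 and chr7:69062431-69062460 with 30 and 41. All 5 ranked between percentiles 65.9 and 75.8 in their lists.

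Regions of the lists numbered 2 alone were led by chr2:32916254-32916332 on the plus strand, with 89 in HSPA1A and 74 in HSPA8. It lies opposite the minus-strand region of all 4 lists at the same place. The next were chr7:5009079-5009103 (23 and 16), chr3:170198018-170198077 (22 and 8), chr16:85969115-85969137 (14 and 11) and chr2:138459470-138459517 (21 and 7). Apart from the first, these ranked below percentile 65 in both lists.

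Peaks within 10 kb of each other were joined into places. There were 519 places, 340 of them with 1 peak, 345 with peaks of 1 list and 48 with peaks of all 4 lists; the 26 places with at least 5 peaks held 254 of the 1014 peaks. The largest, with 27 peaks each, were the U2 array on chromosome 17 and the place on chromosome 2 at chr2:32916254-32916672. The next, with 21 peaks, lay beside MTRNR2L8 on chromosome 11 at chr11:10509253-10510208.

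On chromosome 2 the 27 peaks came from all 4 lists, 4 and 11 from HSPA1A and 4 and 8 from HSPA8. The minus strand carried 18 and the plus strand 9, and every plus-strand peak belonged to a list numbered 2. The 4 minus-strand blocks of the lists numbered 1 scored 874, 458, 881 and 36 in HSPA1A replicate 1 and 886, 343, 645 and 30 in HSPA8 replicate 1. On the plus strand only the first block had scores above 10, 89 and 74. Few intergenic peaks faced another on the opposite strand in the same list: 10 of 328, 10 of 287, 4 of 279 and 4 of 120.

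Beside MTRNR2L8 all 21 peaks lay on the minus strand, between the gene and RNF141, with 6 and 3 from HSPA1A and 8 and 4 from HSPA8. The highest scores in the lists numbered 1 were 260 for HSPA1A and 262 for HSPA8, and in the lists numbered 2 they were 31 and 17. The blocks lay 77 to 997 bp from the gene model. Copies of mitochondrial genes were the nearest gene within 5 kb for 20, 5, 20 and 5 intergenic peaks. MTRNR2L1 had 5 and 4 peaks in the lists numbered 1 and 0 in the lists numbered 2, and MTRNR2L12 had 2, 1, 3 and 0. Nuclear copies closely resemble the mitochondrial gene, so the source of these reads is uncertain.

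The U2 and 5S arrays are tandem repeats of genes for U2, the spliceosomal RNA that pairs with the branch point of introns, and for 5S ribosomal RNA, which RNA polymerase III makes. In RefSeq the U2 array had 13 genes between chr17:43233790-43300231, spaced by a median of 5504 bp, and the 5S array had 17 genes between chr1:228610266-228646158, spaced by 2241 bp. Every one of these genes carried a peak in each of the 4 lists. Scores on the genes ran from 1348 to 1496 and 150 to 855 in the HSPA1A lists and from 360 to 866 and 562 to 609 in the HSPA8 lists for U2. For 5S they ran from 34 to 546, 34 to 283, 45 to 1120 and 25 to 190.

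Spacer peaks of both arrays were weak and almost all from 1 list each. HSPA1A replicate 1 had 24 spacer peaks in the U2 array with scores of 5 or 6, HSPA8 replicate 1 had 3 with scores of 3 to 7, and neither list numbered 2 had any. HSPA8 replicate 1 had 16 spacer peaks in the 5S array, each with a score of 5, HSPA1A replicate 1 had 1 with a score of 16, and the lists numbered 2 had 0. All these peaks lay on the minus strand. They are intergenic by position, but in the 5S array they lie inside a ribosomal gene cluster, so leaving out the chromosome 21 stretch did not remove every cluster of ribosomal RNA genes.

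Many of the spacer peaks recurred with the same width. In the 5S array all 16 peaks of HSPA8 replicate 1 were 67 bp wide and lay 1312 to 1329 bp before the start of the next gene by coordinate. A peak of the same list, width and strand with a score of 5 lay outside the array, at chr1:228556890-228556956. It was 989 bp from RNA5SP19 and is not counted among the array spacers. In the U2 array 9 peaks of HSPA1A replicate 1 were 97 bp wide and, where a gene preceded them, began 782 to 800 bp past it; 8 were 56 bp wide and began 2283 to 10616 bp past a gene (median 2294.5), and 5 were 27 bp wide and began 3212 to 12552 bp past one (median 3925). The other 5 spacer peaks of the U2 array, 58, 59, 60, 78 and 116 bp wide, did not recur. Equal widths and scores across copies of a repeat are a measured fact; whether 1 copy or many gave the reads was not tested. These offsets were examined after the arrays were seen among the largest places.

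**Figure D4:**
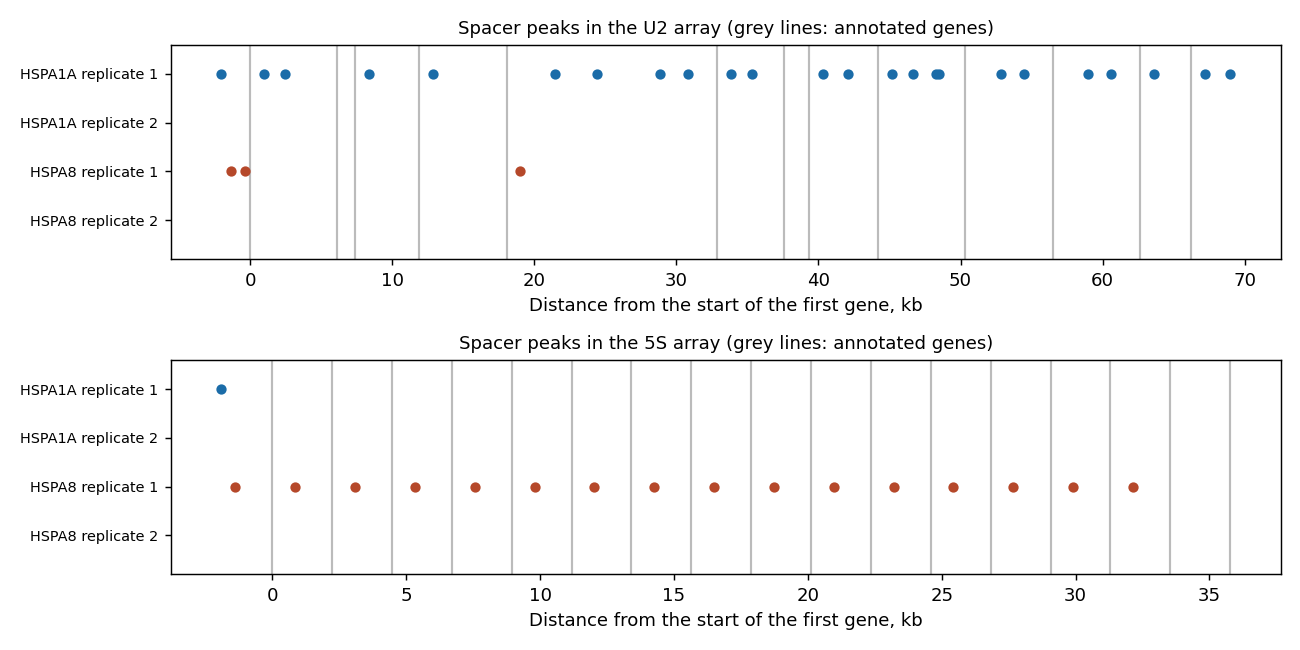
Spacer peaks (points, 1 row per list) along the U2 array (top) and the 5S array (bottom); the horizontal axis is the distance in kb from the start of the first annotated gene and grey lines mark annotated genes. The U2 spacers hold 24 peaks of HSPA1A replicate 1 and 3 of HSPA8 replicate 1, the 5S spacers hold 1 and 16, and the lists numbered 2 hold none in either array.

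Intergenic peaks of the lists numbered 1 lay closer to genes. The median distance to the nearest gene was 6428 and 11663 bp in the HSPA1A lists, and the HSPA8 lists had 4645 and 10662 bp. Within 5 kb lay 145 peaks of HSPA1A replicate 1 (44.2%, Wilson interval 38.9 to 49.6), 86 of replicate 2 (29.97%, 25.0 to 35.5), 141 of HSPA8 replicate 1 (50.5%, 44.7 to 56.4) and 37 of replicate 2 (30.8%, 23.3 to 39.6). The intervals of the lists numbered 1 did not meet that of HSPA1A replicate 2, in this description over peaks. The array spacer peaks, nearly all within 5 kb of a gene, were all in the lists numbered 1. HSPA1A replicate 1 had 24 in the U2 array and 1 in the 5S array, and HSPA8 replicate 1 had 3 and 16. Shares and intervals without these spacer peaks were not computed for each list, so the gap may depend on them.

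Between baits the means were 37.1% ± 10.1 and 40.7% ± 13.9 (SD, n = 2), a difference of -3.60 points, smaller than the spread between replicates (exact two-sided permutation test, p = 0.667). The difference was 3.52 points without HSPA1A replicate 2 and 6.25 points without HSPA8 replicate 1. Within 1 kb lay 69, 34, 84 and 18 peaks, and more than 100 kb from any gene lay 24, 26, 13 and 10. The farthest was 876030 bp away, in HSPA1A replicate 2. Near the limit of the definition, 1 intergenic peak lay within 10 bp of a gene, the closest at 5 bp, and 14 lay within 50 bp; 6 genic peaks overlapped a gene by 10 bp or less.

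**Figure D5:**
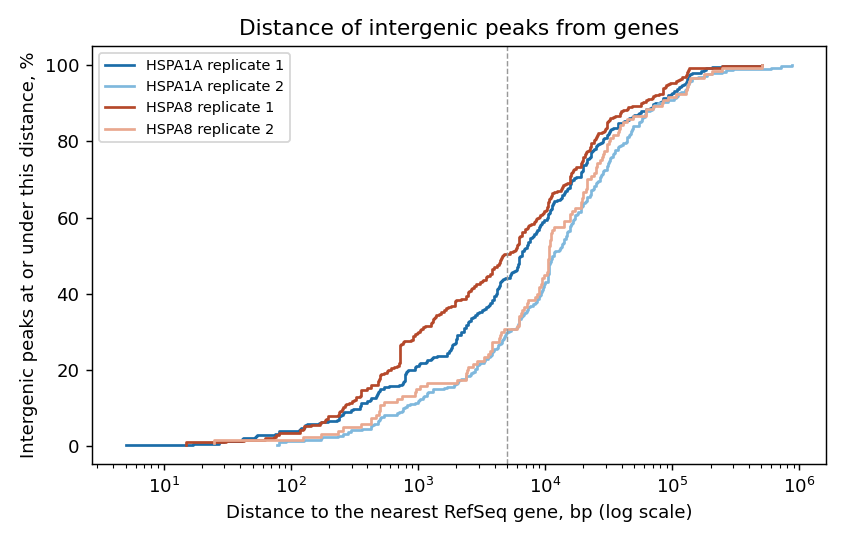
Share of intergenic peaks (vertical axis, %) at or under a given distance to the nearest RefSeq gene (horizontal axis, bp, log scale), 1 line per list; the dashed line marks 5 kb. At 5 kb the lists numbered 1 stand at 44.2% and 50.5% and the lists numbered 2 at 29.97% and 30.8%. The spacer peaks of the U2 and 5S arrays, found only in the lists numbered 1, are included.

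The nearest gene was most often a lncRNA, a pseudogene or a protein-coding gene. Protein-coding genes were nearest to 73, 68, 89 and 22 peaks, lncRNA genes to 112, 126, 80 and 54, and pseudogenes to 111, 82, 85 and 39. Where a protein-coding gene was nearest, no score was over 100, the highest being 61, 100, 97 and 37. Where a pseudogene was nearest, the highest were 304, 147, 474 and 95, and where a lncRNA gene was nearest, 881, 176, 886 and 123. The peaks with these lncRNA scores all lay more than 10 kb from their nearest gene. snRNA genes were nearest to 25 peaks of HSPA1A replicate 1 and to 1, 2 and 0 in the other lists, and rRNA genes to 1, 0, 16 and 0, most of them in the array spacers described before.

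Nuclear tRNA genes, which RNA polymerase III transcribes, were nearest to only 1, 4, 3 and 2 intergenic peaks, none of them within 1 kb. The region of all 4 lists closest to one lay 3814 bp from TRT-TGT2-1 and scored 10, 48, 7 and 14. Genes and pseudogenes of ribosomal RNA were nearest and within 5 kb for 11, 2, 23 and 4 peaks. Beside RNA18SP, an 18S pseudogene on chromosome 22, were 4, 1, 4 and 1 peaks with highest scores of 71, 12, 83 and 13. These were not in the chromosome 21 stretch that was left out.

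Where the strand of the nearest gene was known, regions fell on both sides of genes and on both strands. Of 284 regions within 5 kb of a gene, the promoter table gave the gene's strand for 101: 25 lay downstream on the gene's strand, 24 downstream on the opposite strand, 24 upstream on the gene's strand and 28 upstream on the opposite strand. The other 183 had a nearest gene without an entry. The 4 counts were given no test, since regions near one gene are not independent.

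Downstream on the same strand, 540 bp past VAV3 a region of all 4 lists scored 26, 6, 33 and 6, and a second, 295 bp past it, scored 13, 6 and 10 and was absent from HSPA8 replicate 2. A region 949 bp past the lncRNA LOC105379070 scored 17, 84, 11 and 29, and one 3799 bp past LOC105371745 scored 77, 18, 78 and 10. Upstream on the same strand, a region 484 bp from the lncRNA LINC02963 scored 44, 20, 49 and 19, and one 1032 bp from LOC105372510 scored 17, 54, 8 and 27. A second region at MIR663AHG, 353 bp from it, scored 17 in both lists numbered 1 and 8 in HSPA8 replicate 2.

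By chromosome, intergenic regions were most numerous on chromosome 1, with 68, then chromosome 4 with 56, chromosome 2 with 55, chromosome 17 with 51 and chromosome 7 with 50. Of these, 17 on chromosome 1 and 27 on chromosome 17 were array spacers, nearly all from 1 list; without them chromosome 4 held the most, chromosome 1 held 51 and chromosome 17 held 24. Intergenic regions were fewest on chromosome 21, with 8. Chromosome lengths were not used here, so these counts are no densities. The 54 regions of all 4 lists lay on 17 chromosomes; 18 were within 5 kb of a gene, 10 within 1 kb and 27 beyond 10 kb.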

How the data were processed

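FLASH-seq peaks of 4 samples were used, HSPA1A and HSPA8 with 2 biological replicates each. Per the submitters' processing notes, Trim Galore 0.4.4, FastQC, STAR 2.6.0b and deepTools were used with GRCh38. Peak caller, threshold and handling of multiply matching reads are not given in the sources used here. The score of each peak was set by the authors in making the deposited list of each replicate, and per the labels PCR duplicates were merged before; its meaning is not stated. Positions are 1-based on GRCh38.

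Peaks were set against 56756 genes of the RefSeq GRCh38.p14 table, ignoring strand, which that table lacks; the promoter table gave the strand of the nearest gene for 456 of 1014 peaks. Overlap needed 1 bp on the same strand. Baits were compared by exact permutation tests. Their p-value is the share of label orders, or of ways to pair the lists, with a difference at least as large. These tests rest on 2 lists per bait and allow no p below 0.33. The regions named were the 12 of all 4 lists with the highest mean score percentile, up to 5 per bait or replicate number, the top peak of each list, and the 3 largest places; other names were chosen after their values were seen. Members and lists were chosen with earlier results of these data known. Alternatives covered score, list length, definition, overlap, strand and replicates, and, added after seeing the data, the gene arrays. Same-numbered lists deviated together with a correlation of 0.17 over 646 regions, which does not make them paired samples. Code was tested on simulated peaks, with 400 of 400 gene overlaps and 120 of 120 shared regions recovered. Computations ran in matplotlib 3.10.9, scipy 1.17.1, pandas 2.3.3, numpy 2.4.6 and Python 3.11.15.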

Additional observations from a re-analysis of the deposited data

How the results depend on the processing

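Of 100 alternative values, 4 changed sign and 9, of results with no test, moved beyond their interval or by over 1.5 times. The other 87 kept their direction or, for results with no test, stayed within those limits, though some changed greatly in size. No p was below 0.33, so no test could pass a threshold. Replicate overlap of HSPA1A (39.4%) became 47.1% with peaks at or above the median score, 53.8% with equal numbers of top-scoring peaks and 52.3% with the chromosome 21 and 12 places kept; that of HSPA8 (56.7%) became 78.9%, 39.8% and 70.3%. Regions of all 4 lists (54) fell to 14 with peaks at or above the median score, 34 with equal numbers and 27 beyond 10 kb from a gene, since fewer peaks entered. The share within 5 kb, HSPA1A minus HSPA8 (-3.60 points), was 1.02 without peaks within 1 kb, and it has no value where only peaks beyond 10 kb are kept.

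Leaving out each replicate in turn gave -13.5 to 6.25 points for the share within 5 kb, with the sign turned without HSPA1A replicate 2 (3.52) and without HSPA8 replicate 1 (6.25). It gave -46.5 to 3.35 points for overlap within minus between baits, turned without HSPA8 replicate 2 (3.35). The ranges were 1.37 to 6.60 points for the intergenic share, 0.390 to 0.907 for the ratio of peak numbers and 1.33 to 7.12 points for the score percentile. With the replicate block, the intergenic share differed by 3.98 points, the ratio was 0.596, the score percentile differed by 4.23 and the share within 5 kb by -3.60 (exact sign-flip permutation, p = 0.5 each, the lowest possible). The score percentile difference was 0.0338 without the gene arrays and 16.9 with equal numbers of peaks. The cause of these shifts was not tested beyond what is stated. Read depth, the meaning of the score and the placing of repeated reads limit all values, and no control bait was analysed.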
